A study of Mus musculus with 8 samples.

Results

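The 3 input chromatin libraries of the series are described here against one another, peak list by peak list. They were chosen by their titles, are 3 of the 8 libraries deposited, and hold 379592 of the 409768 peaks listed over all 8. The study mapped where the remodelers Chd7 and Chd8 bind chromatin by ChIP-seq, sequencing of immunoprecipitated chromatin, in O4+ cells taken from wild-type mice on postnatal day 7 by magnetic sorting with anti-O4 antibodies. By their labels the cells came from cortex and corpus callosum, are OPCs (oligodendrocyte precursor cells) and had no treatment. An input is DNA from the same kind of sonicated nuclei sequenced with no antibody. Title numbers make input 1 the control of Chd7 replicate 1, input 2 of Chd7 replicate 2, and input 3 of the Chd8 library. By the track names inside the ChIP files, the single Chd8 library and Chd7 replicate 2 would change places. The 2 mock libraries, precipitated with rabbit IgG, serve here as a second kind of control, and the ChIP lists were used only to count how many of them touch a given site. All 8 libraries share genotype, age, tissue and sort. The sources used here give neither the sex of the mice nor whether the inputs came from separate animals or litters, so their spread may be technical. An input measures no expression, and the cell label could not be checked against marker genes with these files.

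Sonication does not break chromatin evenly, so input DNA is not uniform. Open, CpG-rich promoters tend to be sheared and recovered more readily than packed chromatin, and sequences that exist in many copies but are few or collapsed in the assembly collect reads from all copies. Base composition also alters how fragments are amplified and sequenced. An input is sequenced beside a ChIP so that such unevenness can be set against the ChIP signal.

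The inputs differed plainly at promoters, and the sequences of 6 promoters show the range. They were picked after their values were seen: U2af1 and Chd8 had a peak of all 3 inputs over the promoter, Gapdh of inputs 1 and 3, Olig2 of input 3 alone, and Pgk1 on the X chromosome and Alb of none. Each line gives the 250 bases before the start site, 5′ to 3′, from RefSeq (GRCm38.p6, the mm10 assembly), with each CpG in capitals.

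U2af1, chr17:31658765-31659014, minus strand: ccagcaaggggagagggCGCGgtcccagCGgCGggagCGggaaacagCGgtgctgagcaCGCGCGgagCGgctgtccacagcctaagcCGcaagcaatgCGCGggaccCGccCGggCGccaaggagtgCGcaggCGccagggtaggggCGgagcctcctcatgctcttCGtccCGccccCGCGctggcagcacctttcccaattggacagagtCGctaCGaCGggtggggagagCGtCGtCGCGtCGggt
Chd8, chr14:52257761-52258010, minus strand: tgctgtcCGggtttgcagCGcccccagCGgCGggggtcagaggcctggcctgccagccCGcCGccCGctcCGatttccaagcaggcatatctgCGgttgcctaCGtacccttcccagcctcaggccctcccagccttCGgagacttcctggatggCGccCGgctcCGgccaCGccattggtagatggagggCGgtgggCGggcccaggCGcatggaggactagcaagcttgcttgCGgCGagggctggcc
Gapdh, chr6:125165774-125166023, minus strand: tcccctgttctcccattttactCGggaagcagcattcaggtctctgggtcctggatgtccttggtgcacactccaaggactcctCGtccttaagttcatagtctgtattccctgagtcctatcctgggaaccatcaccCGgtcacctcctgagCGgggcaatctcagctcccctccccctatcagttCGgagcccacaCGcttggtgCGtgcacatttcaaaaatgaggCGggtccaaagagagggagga
Olig2, chr16:91225300-91225549, plus strand: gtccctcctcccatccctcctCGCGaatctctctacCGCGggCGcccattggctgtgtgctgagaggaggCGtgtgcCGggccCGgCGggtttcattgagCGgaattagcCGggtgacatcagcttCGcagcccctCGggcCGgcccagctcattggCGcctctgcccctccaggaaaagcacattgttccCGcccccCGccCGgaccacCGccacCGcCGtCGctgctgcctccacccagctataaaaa
Pgk1, chrX:106186850-106187099, plus strand: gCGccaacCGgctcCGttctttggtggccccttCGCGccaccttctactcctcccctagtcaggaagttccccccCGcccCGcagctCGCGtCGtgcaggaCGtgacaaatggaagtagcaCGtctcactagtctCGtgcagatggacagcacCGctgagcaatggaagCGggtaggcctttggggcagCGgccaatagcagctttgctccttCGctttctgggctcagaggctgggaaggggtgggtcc
Alb, chr5:90460620-90460869, plus strand: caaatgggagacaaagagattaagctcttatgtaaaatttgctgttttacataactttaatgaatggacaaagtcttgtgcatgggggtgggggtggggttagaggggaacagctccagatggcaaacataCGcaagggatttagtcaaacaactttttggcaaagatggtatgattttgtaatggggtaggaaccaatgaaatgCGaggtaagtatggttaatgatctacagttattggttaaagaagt

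The 250 bases of U2af1, a splicing factor that reads the 3′ splice site, hold 31 CpGs at 71.6% GC, and peaks of inputs 1, 2 and 3 cover 121, 84 and 231 of the bases. For Chd8 the counts are 20 CpGs at 70% GC, with 224, 45 and 230 bases under a peak. In Gapdh, a glycolytic enzyme, an input 3 peak covers 237 of the printed bases, which hold 8 CpGs, and the input 1 peak touches only the bases after the start. In Olig2, a transcription factor that specifies the oligodendrocyte lineage, 22 CpGs were printed and the input 3 peak (chr16:91225270-91225371) covers the first 72 bases. Pgk1, another glycolytic enzyme, has 17 CpGs at 62.8% GC and no input peak, and Alb, the liver's serum albumin, has 2 CpGs at 39.2% GC and no input peak. Pgk1 thus had more CpGs than Gapdh, and no peak.

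The lists differed in length before anything else was compared. Inputs 1, 2 and 3 held 109486, 178478 and 91628 peaks, which covered 40.7, 81.5 and 34.2 Mb, or 1.5%, 2.99% and 1.26% of the chromosomes. Single peaks were nonetheless of like width, with medians of 275, 287 and 280 bp. Input 2 stood apart in its long peaks: 2.06% were over 2 kb, against 0.40% in input 1 and 0.259% in input 3. Neighbours within 1 kb were found for 36.6% and 39.2% of the peaks of inputs 1 and 2 but for 18.7% of those of input 3. Peak numbers ran to 135473, 224991 and 264855, so 80.8%, 79.3% and 34.6% of the numbered peaks were listed. Input 3 thus kept the smallest share of its numbered peaks; the step that dropped the rest is not stated, and the part of this in the differences below was not tested. Nearly all peaks were shallow, with median folds over the caller's background of 3.79, 3.62 and 3.50 and a 99th percentile of 5.20, 5.17 and 4.86. Peak lists hold no reads, so depth is unknown, and the 95% exact binomial (Clopper-Pearson) intervals given below cover counting error over regions or genes only. A single group of 3 libraries allows no test, and all comparisons are descriptions of these libraries.

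How far the inputs recur in one another was asked first, by merging all peaks that overlapped by at least 1 bp. Most of the merged regions belonged to a single input. Of 249712 regions, 25849 (10.4%, 10.2 to 10.5) had a peak of all 3, 59188 (23.7%, 23.5 to 23.9) of 2, and 164675 (65.9%, 65.8 to 66.1) of 1. Measured by bases, 6.49 Mb lay under peaks of all 3 inputs, which is 5.62% of the 115 Mb covered by any. That stretch made up 15.9% of the bases of input 1, 7.96% of input 2 and 18.9% of input 3.

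The pairs were not alike. Inputs 1 and 2 alone shared 39290 regions, inputs 2 and 3 alone 15052, and inputs 1 and 3 alone 4846. Of input 1 peaks, 68.7% overlapped input 2 and 28.6% input 3. Of input 2 peaks, 38.3% overlapped input 1 and 23.7% input 3. Of input 3 peaks, 33.3% overlapped input 1 and 47.4% input 2. The longest list had the largest chance to be hit, so each share is of the list named. Peaks found in both other inputs made up 23.3% (23.0 to 23.5) of input 1, 14.5% (14.3 to 14.6) of input 2 and 27.2% (26.9 to 27.5) of input 3.

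Recurrence went up with fold in inputs 1 and 2 and changed less in input 3. With the peaks of each list split by fold into 4 equal groups, the share found in both other inputs went from 13.9% in the lowest to 31.9% in the highest group of input 1, and from 5.45% to 22.0% in input 2. In input 3 it went from 25% to 29.0%. Within the 25849 regions of all 3, the folds of 2 inputs were weakly related across regions (Spearman rho 0.24 for inputs 1 and 2, 0.13 for 1 and 3, 0.14 for 2 and 3). Regions are not independent points, and they share their sequence and mappability. Pearson's r on log2 folds was higher, 0.76, 0.77 and 0.76, and fell to 0.64, 0.62 and 0.64 without the 53 regions that touch a mock peak.

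**Figure D1:**
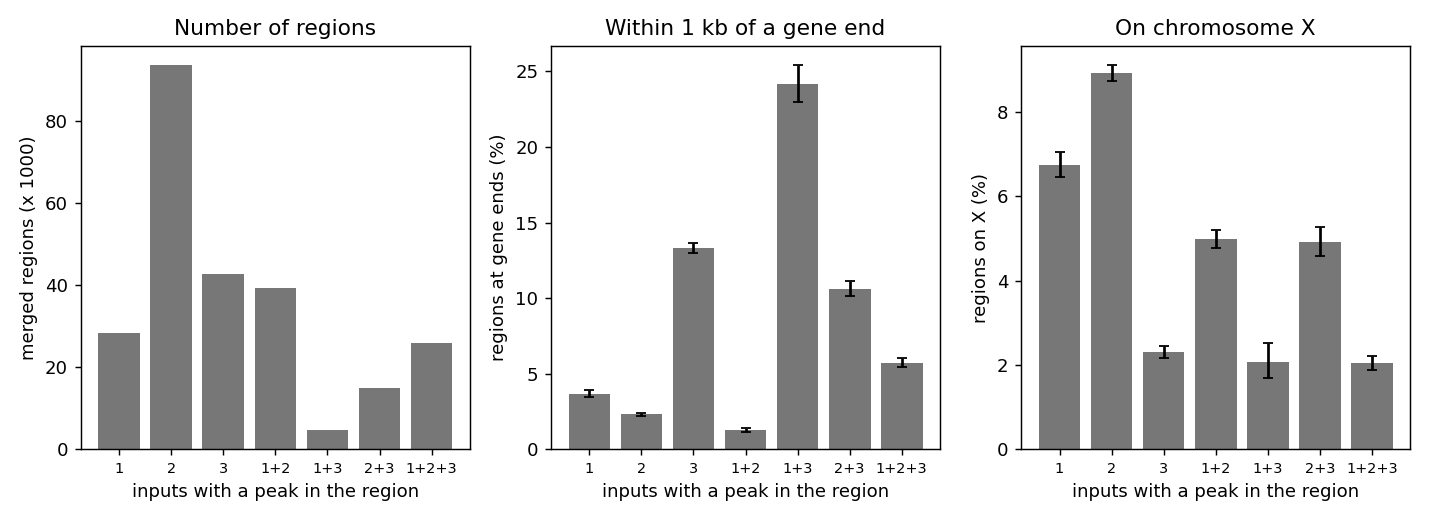
Merged regions by the inputs that have a peak in them: their number (left, in units of 1000), the share whose midpoint lies within 1 kb of a protein-coding gene's end (middle, percent) and the share on chromosome X (right, percent). Bars for shares carry 95% Clopper-Pearson intervals. Input 2 alone holds the most regions (93570), and regions of inputs 1 and 3 reach the highest gene-end share (24.2%).

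Place in the genome separated input 3 from the others. A gene end was either boundary of a protein-coding gene with 1 kb on both sides, since the gene table gives no strand. With all listed peaks the number of inputs made little difference: 5.73% (5.45 to 6.02) of regions in all 3 inputs, 5.54% of those in 2 and 5.42% of those in 1 lay at a gene end. Under stricter or equal lists it did: with equal numbers of highest-fold peaks 3.49% of regions in all 3 and 6.73% of those in 1 lay at a gene end, and with a fold of 5 or more 0.694% and 3.63%. Which inputs they were also made a difference. The gene-end share was 3.69% (3.47 to 3.91) for input 1 alone, 2.33% (2.23 to 2.43) for input 2 alone and 1.3% (1.19 to 1.41) for inputs 1 and 2 together. It was 13.3% (13.0 to 13.7) for input 3 alone, 10.6% (10.1 to 11.1) for inputs 2 and 3, and 24.2% (23.0 to 25.4) for inputs 1 and 3. Regions between genes showed the reverse, from 39.1% for input 3 alone to 72.6% for inputs 1 and 2.

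The same split ran through single peaks. An input 1 peak at a gene end overlapped input 3 in 63.0% of cases and input 2 in 44.3%, while over all input 1 peaks input 2 was the commoner partner. Input 2 peaks at gene ends likewise overlapped input 3 in 53.9% and input 1 in 32.2%. Higher folds lay at gene ends more often in input 3, from 8.16% of the lowest group to 13.5% of the highest, and less often in inputs 1 (4.72% to 3.66%) and 2 (4.21% to 2.70%). The gene-end signal of input 3 was thus not confined to its weakest peaks.

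Promoters were then read at the start sites themselves, in 32851 RefSeq windows of 300 bases (250 before to 50 after the start); chromosome 18 was not used for them. Peaks of inputs 1, 2 and 3 touched 7.78%, 8.66% and 21.6% of the windows, and 2.83% (929 windows) were touched by all 3. With equal numbers of highest-fold peaks the shares were 6.43%, 3.78% and 21.6%, so the order of inputs 1 and 2 turned with list length. Windows with more inputs were richer in GC and CpG. The median GC content was 49.7% in windows with no input peak, 61.0% with 1, 64.3% with 2 and 66.3% with all 3, against 52.7% over all windows. The median ratio of observed to expected CpG went from 0.275 with none to 0.744, 0.804 and 0.828. Windows touched only by input 3 (4032) had a median GC of 60.7%, below the 65% of the 630 touched only by input 2.

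The share of promoters with a peak rose with GC content and fell again at the top. At up to 35% GC it was 0.229%, 0.306% and 0.0764% for inputs 1, 2 and 3. Between 65% and 70% GC it reached 24.9%, 31.7% and 55.3%, and above 75% GC it was 5.88%, 10.2% and 20.3%. Input 3 had the highest share in every class above 40% GC. GC was not the only property that moved with the peaks. Among windows of 55% to 60% GC, those with an observed to expected CpG ratio of up to 0.4 had a peak in 2.26%, 0.753% and 15.1% of cases. Those with a ratio above 0.8 had one in 19.1%, 16.7% and 54.7%.

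**Figure D2:**
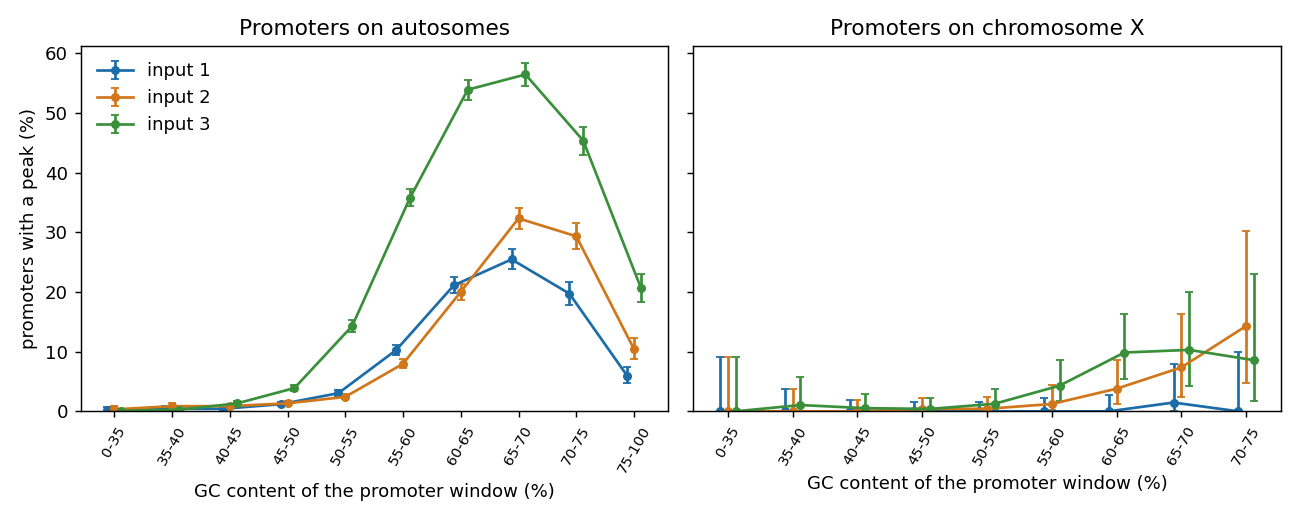
Share of promoter windows with an input peak (percent, vertical axis) by GC content of the 300-base window (percent, horizontal axis), for autosomes (left) and chromosome X (right). Points are shares with 95% Clopper-Pearson intervals, and the top class of X windows, with under 20 windows, is left out. On autosomes all 3 inputs rise to a maximum at 65% to 70% GC, and X promoters above 55% GC lie lower than autosomal ones in inputs 1, 2 and 3.

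Promoters on the X chromosome were touched far less often than autosomal promoters of the same GC content. Among windows of 55% to 70% GC, 10592 lay on autosomes and 363 on the X, with median GC of 61.3% and 60.7%. Input 1 touched 17.8% (17.0 to 18.5) of the autosomal windows and 1 of the 363 X windows (0.275%, 0.00697 to 1.53). Input 2 touched 18.2% (17.5 to 19) and 12 windows (3.31%, 1.72 to 5.70), and input 3 touched 47.1% (46.1 to 48.0) and 27 windows (7.44%, 4.96 to 10.6). The X shares were lower in all 3 inputs, and no interval overlapped. With equal numbers of peaks, taking the highest folds, the autosomal shares were 14.7%, 7.94% and 47.1% and the X counts 0, 3 and 27. Pgk1, printed above, is 1 of these X promoters without a peak. The sex of the mice is not given, and its part in these values was not tested.

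Aligned on the start site, the inputs showed a narrow summit over GC-rich starts. At the 13926 starts with a window of over 55% GC, 10.6%, 12% and 34.8% had a peak of inputs 1, 2 and 3 over the start base. At 4 to 5 kb away the shares were 0.961%, 1.84% and 2.29%. At the 18891 starts of up to 55% GC, inputs 1 and 2 were lower at the start (0.783% and 0.651%) than 4 to 5 kb away (1.01% and 2.06%). Input 3 kept a small summit of 5.53% at 200 bases past the start, against 1.25% far away. At that same position inputs 1 and 2 stood at 1.22% and 1.29%, so input 1 was also above its far level there and input 2 below it.

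**Figure D3:**
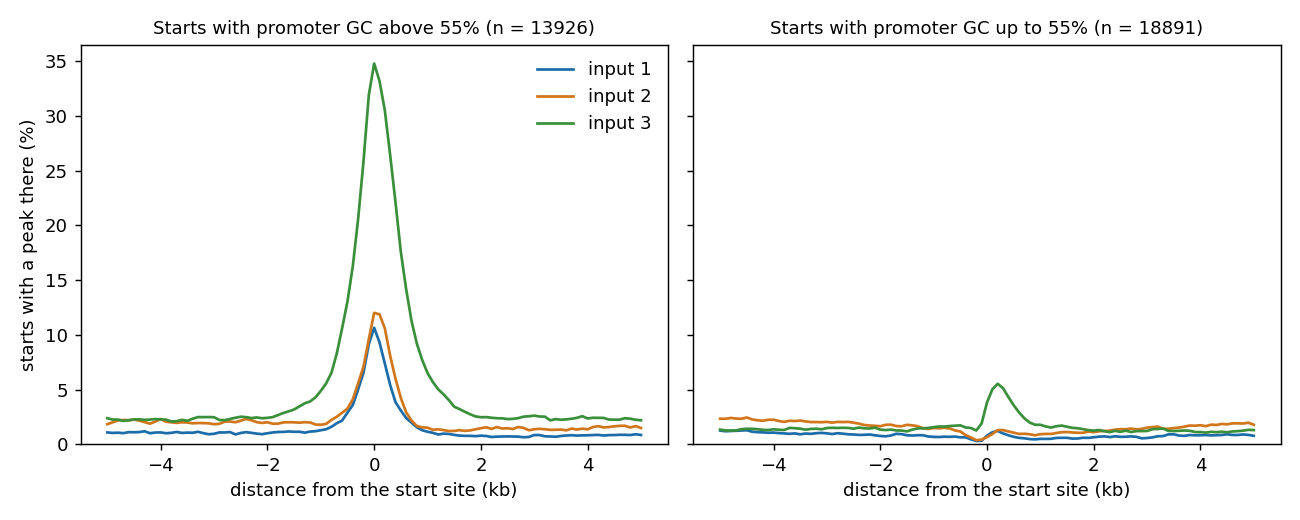
Share of start sites with an input peak (percent, vertical axis) at each distance from the start (kb, horizontal axis; positive is downstream), for starts with a promoter window above 55% GC (left) and up to 55% GC (right). Lines are the 3 inputs. Input 3 reaches 34.8% at GC-rich starts. At the AT-richer ones inputs 1 and 2 are lowest 200 bases before the start (0.296% and 0.371%).

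Short sequence motifs were counted in the promoter windows as letters only, on both strands and each independently of the others, so matches of different motifs may share bases. GGGCGG, the core of the GC box, was held by 78.0% of windows with all 3 inputs, 25.1% of those with none and 35.7% of all windows. CCGGAAG, a core that ETS factors bind, was held by 26.4%, 5.07% and 8.86%. TATAAA was held by 2.80%, 16.5% and 13.6%, and CCAAT by 43.9%, 37.2% and 37.4%. The motifs themselves are rich or poor in GC, so the counts were repeated at matched GC content. Among windows of 60% to 65% GC, GGGCGG was nearly level at 72.5% with all 3 inputs and 69.9% with none, while CCGGAAG stood at 28.4% and 12.8% and CCAAT at 50.4% and 32.9%. TATAAA was also nearly level there, at 4.24% and 4.99%. The ratio of observed to expected CpG was not matched in these counts, and CCGGAAG and GGGCGG each hold a CpG.

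Gene ends were next read gene by gene. Of 21887 protein-coding genes, 21.9% had a peak of input 1 at an end, 28.4% of input 2 and 45.2% of input 3, and 2407 (11%) had a peak of all 3. A further 4032 genes had a peak of 2 inputs and 5621 of 1, of which 3930 had input 3 alone, and 9827 (44.9%) had none. For the 15328 genes whose strand could be read from the promoter windows, the start was the commoner end: 20.7%, 25.9% and 44.5% had a peak there, against 4.66%, 8.04% and 12.7% at the far end.

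Gene lists are given as counts beside those shares, because the lists differ in CpG content, length and copy number and were not tested. The ribosomal protein, splicing, chromatin regulator and immediate early lists lay above the background of all genes in each input. Of 77 cytosolic ribosomal protein genes, 34, 44 and 56 had an end peak of inputs 1, 2 and 3, and 22 had all 3. Of 41 RNA splicing genes the counts were 16, 14 and 35, with 8 in all 3. Of 49 chromatin regulators they were 17, 21 and 37 with 10 in all 3, and of 19 immediate early genes, which respond to stimuli within minutes, 7, 10 and 16 with 5. Cell cycle genes had 8, 12 and 23 of 36, close to the background in inputs 1 and 2, and 2 in all 3.

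Cell type lists were mixed and small. Oligodendrocyte precursor genes had an end peak in 4, 7 and 17 of 28, and 2 of them in all 3 inputs. Oligodendrocyte and myelin genes had one in 6, 10 and 14 of 25 (3 in all 3), neuronal genes in 4, 6 and 9 of 25 (2 in all 3), and astrocyte genes in 5, 3 and 8 of 16 (1 in all 3). Microglial genes had one in 3, 1 and 5 of 18 and endothelial genes in 2, 4 and 6 of 16, with none in all 3. Hepatocyte genes, a tissue outside the brain, had one in 2, 3 and 6 of 22, with 1 in all 3. Input 3 gave the highest count in each of these 7 lists. It also did so over all protein-coding genes, at 45.2% against 21.9% and 28.4% for inputs 1 and 2. In input 3 the precursor, oligodendrocyte and astrocyte lists lay above that 45.2%, and the other lists below it. In input 1 only the oligodendrocyte and astrocyte lists, and in input 2 only the oligodendrocyte list, lay above the share of all genes.

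Tandem gene families lay low. Only 20, 40 and 25 of 1110 olfactory receptor genes had an end peak of inputs 1, 2 and 3, and 2 had all 3. For vomeronasal receptors the counts were 10, 25 and 6 of 353 with 2 in all 3, for keratin-associated proteins 2, 6 and 1 of 56 with none, and for defensins 0, 5 and 3 of 72 with none. In these 4 families input 2 had the highest count. Replication-dependent histone genes had 6, 10 and 14 of 62, with 1 in all 3. The Zfp zinc finger genes sat at the background with 83, 115 and 175 of 397 and 43 in all 3, and genes listed as multi-copy or repeat-rich had 5, 4 and 4 of 30 with 3 in all 3.

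Clustered protocadherin and Hox genes were near the background in input 3 and below it in inputs 1 and 2. Of 57 clustered protocadherin genes, neuronal adhesion molecules, 1, 0 and 24 (42.1% in input 3) had an end peak of inputs 1, 2 and 3. Of 39 Hox genes, which pattern the body axis, 3, 6 and 19 (48.7% in input 3) had one, and none had all 3. Across the span of the Hoxa cluster there were 4, 2 and 14 peaks, across Hoxb 2, 9 and 12, across Hoxc 1, 1 and 11, and across Hoxd 4, 2 and 8. The highest Hox fold was at Hoxa2, where a 944 bp input 3 peak (chr6:52162945-52163888, mm10) had a fold of 9.51, and a second one (chr6:52164249-52164610) a fold of 5.74. The highest Hoxa folds of inputs 1 and 2 were 5.25 and 3.58.

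Individual genes give the scale of these peaks. Each fold is the highest within 1 kb of either end. Of the lineage genes, Olig1, Olig2, Sox10 and Cspg4, which mark oligodendrocyte precursors, had an input 3 peak only, with folds of 3.73, 4.13, 3.97 and 3.61. Pdgfra, the growth factor receptor of precursors, had no input peak at an end. Mbp, myelin basic protein, had folds of 3.52, 3.45 and 3.65 in inputs 1, 2 and 3, and Cnp and Tspan2 of the same list had 3.80, 3.91 and 3.43 and 3.52, 4.91 and 3.81. The precursor genes with all 3 were Bcan, a brain proteoglycan (4.25, 3.47, 3.59), and Lhfpl3 (3.69, 3.46, 3.85).

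Of the study's own targets, Chd8 had end peaks with folds of 3.65, 3.97 and 3.63 in inputs 1, 2 and 3, the last pair at its far end, and Chd7 had none. Actb, the cytoskeletal actin often used as a reference, had an input 3 peak only (3.62). Gapdh, used likewise, had one in inputs 1 and 3 (3.83 and 3.74), and Alb had none. The lowest folds that the lists hold are 3.52, 3.23 and 3.26, and the highest of the 4 fold groups begin at 4.02, 3.90 and 3.70. Chd8 in input 2 and Gapdh in input 3 thus lie in the highest group of their lists, as do Olig1, Olig2 and Sox10 in input 3.

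Members of the other lists with all 3 inputs had folds of like size. The leading ribosomal genes were Rpl35 (4.24, 4.48 and 4.03 in inputs 1, 2 and 3), Rps24 (4.01, 4.09, 3.94) and Rpl18 (3.73, 4.06, 4.17). The leading splicing genes were U2af1 (4.27, 3.23, 4.37), Snrpb (3.57, 3.98, 3.82) and Sf3a2 (3.58, 3.97, 3.80). Among chromatin regulators they were the SWI/SNF subunit Smarcd1 (4.00, 4.00, 3.87), the Polycomb subunit Suz12 (3.79, 3.87, 3.79) and the methyltransferase Setd2 (3.81, 3.55, 4.04).

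Of the stimulus and cycle genes, only Zfp36 in input 1 and Jund in input 2 had a fold above those just named for the same input. Jund had 4.00, 4.87 and 3.54, Zfp36 had 4.33, 4.23 and 3.58, and Junb had 4.13, 3.68 and 4.09. Cdk4 had 3.52, 3.96 and 3.61, and Mcm4, a subunit of the replicative helicase, had 3.60, 3.37 and 3.46. Of the neuronal list, Neurod6 had 3.75, 3.80 and 4.01 and Snap25, a synaptic fusion protein, had 3.66, 3.65 and 3.90. The only astrocyte and hepatocyte genes with all 3 were Fgfr3 (4.09, 3.81, 3.43) and F2, prothrombin (4.05, 4.12, 3.32).

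Sensory receptor genes with all 3 inputs were few. The olfactory receptors were Olfr638 (3.52, 3.34, 3.79) and Olfr224 (3.66, 3.31, 3.31), and the vomeronasal receptors Vmn1r30 (4.30, 4.38, 3.42) and Vmn1r50 (4.33, 3.72, 3.39). The linker histone gene H1f2 had 4.19, 3.44 and 3.46. Of the zinc finger genes, Zfp970 had 4.30, 5.13 and 5.26, Zfp810 had 4.74, 4.10 and 4.22, and Zfp410 had 3.99, 4.88 and 3.90. In the multi-copy list, Hjurp, a centromere chaperone, had 4.67, 4.19 and 4.89 and Pisd, a phospholipid enzyme, had 4.07, 3.46 and 4.61.

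The gene ends with the highest folds in all 3 inputs were of another kind, mostly far ends, predicted genes and multi-copy loci. Lars2, the mitochondrial leucyl-tRNA synthetase, led with 11.3, 8.36 and 18.0 in inputs 1, 2 and 3, at its far end (chr9:123461801-123462170 in input 1), where all 3 peaks touch a mock peak. Sfi1, a centriole protein, followed with 7.54, 5.74 and 12.3, also over mock peaks. None of the next 8 touched a mock peak: Tmem267 had 6.83, 7.33 and 7.29, although its input 3 peak lies at the start and the others at the far end, and 4930467E23Rik had 6.17, 6.27 and 8.21. LOC100504180 had 6.20, 4.01 and 11, and 1600014C10Rik had 5.77, 5.84 and 7.12. Gm52481 on the Y chromosome had 5.97, 6.03 and 6.24, and Sp100, a nuclear body protein of a clustered family, had 7.04, 5.93 and 4.53. Gm40369 had 5.90, 6.09 and 3.99, and Zfp970 closed the 10. Genes with near-identical copies are uncertain, since reads of copies cannot be told apart in peak lists.

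Genes with a peak of a single input reached folds of the same size. For input 1 they were led by Magea8 (5.65), Lrrc19 (5.50), Sav1, a Hippo pathway scaffold (5.47), Afm, a vitamin E binding protein (5.22) and 6330403K07Rik (5.00). For input 2 they were Cdc23, a subunit of the anaphase-promoting complex (6.52), Phb, prohibitin (5.79), Acot2 (5.70), Spata3 (5.44) and Flg2, a skin barrier protein (5.44). For input 3 they were Gm14625 (12.2), Hoxa2 (9.51), Ugt1a1, the bilirubin conjugating enzyme (5.32), Hrk, a BH3-only cell death gene (5.25) and Ccer2 (5.11). These folds overlap those of the 10 leading gene ends found in all 3 inputs.

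Short RNA genes were read by any overlap with a peak, which touched 45.7%, 55.6% and 62.8% of the much longer protein-coding genes in inputs 1, 2 and 3. Of 1228 miRNA genes 16, 29 and 93 were touched (1.3%, 2.36% and 7.57%), and 6 were touched by all 3. Of 408 tRNA genes 4, 3 and 13 were touched (0.980%, 0.735% and 3.19%). The peaks of inputs 1, 2 and 3 cover 1.5%, 2.99% and 1.26% of the chromosomes, which is a closer background for genes this short. Both the miRNA and the tRNA share lay above it in input 3 only. Small nuclear RNA genes had another order: 16 and 18 of 1004 were touched by inputs 1 and 2, and 0 by input 3, which allows a share of up to 0.367% (upper bound of the exact interval).

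Chromosomes repeated the split between input 3 and the others. Over the 19 autosomes, peaks per Mb in inputs 1 and 2 ranked almost alike (Spearman rho 0.94), while input 3 was unrelated to input 1 (0.04) and weakly related to input 2 (0.23). Chromosomes are few, and they share gene density and base composition. Chromosome 3 was densest in inputs 1 and 2 (53.0 and 78.4 peaks per Mb) and chromosome 7 sparsest (32.6 and 57.7), whereas input 3 was densest on chromosome 11 (45.8) and sparsest on 14 (27.1). Peak density went down with protein-coding genes per Mb in inputs 1 and 2 (rho -0.47 and -0.36) and up in input 3 (0.69). Against the median GC of promoter windows, over the 18 autosomes with windows, rho was -0.21, -0.03 and 0.84.

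Windows of 1 Mb showed the split less sharply. In the 268 autosomal windows with no protein-coding gene, inputs 1, 2 and 3 had 62.2, 93.7 and 30.8 peaks on average. In the 476 windows with 10 to 19 genes they had 34.3, 60.1 and 44.3, and in the 266 with 20 or more 43.9, 79.1 and 65.1. Inputs 1 and 2 were thus densest in gene-free windows, lower at middle gene density and higher again in the most gene-dense, while input 3 was densest in the last. Over 2394 windows the counts of inputs 1 and 2 had a rho of 0.93, and those of input 3 had 0.45 with input 1 and 0.48 with input 2. Against the number of protein-coding genes in the window, rho was -0.24, -0.14 and 0.37 for inputs 1, 2 and 3.

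The X chromosome differed among the inputs. It held 27.0, 68.3 and 14.0 peaks per Mb in inputs 1, 2 and 3 against 42.6, 67.8 and 36.3 on autosomes, which is a ratio of 0.635, 1.01 and 0.385. In inputs 1 and 3 all 19 autosomes were denser than the X, and in input 2 the X was denser than 10 of them. By covered bases the ratios were 0.506, 0.871 and 0.323. The order was the same for peaks away from gene ends, at 0.660, 1.04 and 0.422. The ratio moved with list length and threshold. With equal numbers of highest-fold peaks it was 0.557, 0.697 and 0.385, so the gap between inputs 1 and 2 was smaller and no input reached 1. The X share fell from the lowest to the highest fold group in input 1 (6.33% to 2.76%), input 2 (9.32% to 3.68%) and input 3 (3.14% to 2.41%). Among the few peaks that reached a −log10 q of 5 (520, 757 and 444) the ratios were instead 1.33, 1.43 and 1.42. The Y chromosome held 50, 64 and 40 peaks.

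**Figure D4:**
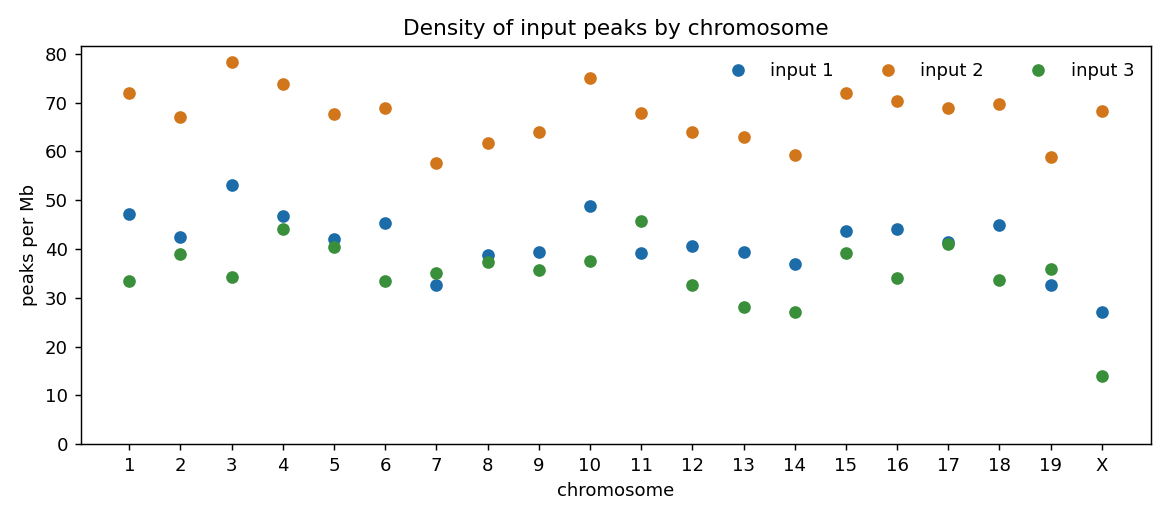
Input peaks per Mb (vertical axis) on each autosome and chromosome X (horizontal axis), with 1 point per input. Inputs 1 and 2 move together from chromosome to chromosome (both highest on 3, at 53.0 and 78.4), and inputs 1 and 3 are lowest on X (27.0 and 14.0).

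Regions of all 3 inputs were wide. Their median was 966 bp (quartiles 570 and 1591), against 498 bp for regions of 2 inputs and 210 bp for regions of 1. Merging widens a region, and a wide peak is also more likely to overlap another list, so part of this order is set by the rule. For single peaks the median was 391 bp in input 1, 681 bp in input 2 and 419 bp in input 3 for peaks found in both others, and 192, 211 and 223 bp for peaks found in neither. Width also went with place, read from midpoints, so that a wide region may cover a gene end and still be classed as inside or between genes. Of regions in all 3 inputs, those at gene ends had a median of 736.5 bp, those inside genes 867 bp and those between genes 1040.0 bp. None of the 1482 with a midpoint at a gene end was over 3 kb, while 398 inside genes and 1227 between genes were. Counts per kb of width were 930 from 3 to 4 kb, 372 from 4 to 5 kb, 281 from 5 to 6 kb and 27 from 6 to 7 kb.

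The 5 widest regions lay at 2 loci. On chromosome 11, 4 of them sit side by side over Sfi1, at chr11:3126954-3148819 (21866 bp), chr11:3180693-3200045 (19353 bp), chr11:3152061-3168108 (16048 bp) and chr11:3168351-3180206 (11856 bp), with highest folds between 7.39 and 12.3 in the 3 inputs. All 4 touch a mock peak. The other is chr2:177526166-177537955 (11790 bp), between genes near Zfp970, with folds of 5.40, 5.52 and 4.87 and no mock peak.

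Hot spots were the regions in all 3 inputs that also touch a peak of either mock, that is, sites that rise without antibody and with a nonspecific one. There were 53, or 0.205% of the 25849 regions in all 3, and they covered 138 kb on 17 chromosomes, 46 on autosomes, 3 on X and 4 on Y. Peaks of mock 1 touched 51 of them and peaks of mock 2 touched 36, and 34 were touched by both mocks. No repeat annotation was used here, so their repeat content was not read. Of the 62 merged regions of any class that touch a mock peak, 53 had all 3 inputs, 6 had 2 and 3 had 1. The mocks held 89 and 98 peaks, of which 73 (82.0%) and 84 (85.7%) touched a peak of each input and 9 and 9 touched none.

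Hot spots held the highest folds of all 3 inputs. The median of the geometric mean fold was 9.17 in hot spots and 3.77 in the other 25796 regions. The lowest folds in the mock lists were 4.84 and 4.39, so part of this gap may be set by the rule that picks hot spots. In 7 hot spots the fold was over 100 in each input, in 20 it was over 10 in each, and in 24 it was under 10 in each. At gene ends lay 2 of them (3.77%, against 5.73% of all regions in all 3), and 22 touched a protein-coding gene. Their median width was 922 bp, against 966 bp for the others. All 3 ChIP lists of the series touched 42 of them, and no ChIP list touched 3. How many of the other regions touch a ChIP list or a protein-coding gene is not given here. Those counts thus have no background and are not shown to be particular to hot spots.

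The leading hot spot, chr2:98666224-98667338, had folds of 1611, 2019 and 1590.5 in inputs 1, 2 and 3 and of 749 and 376 in the mocks. It lies 1034552 bp from the nearest protein-coding gene, Lrrc4c. A neighbour at chr2:98662221-98663000 had 844, 1051 and 820 in the inputs, and another at chr2:98664881-98665226 had 795, 898 and 688. Inside Chl1, a neural adhesion molecule, chr6:103648490-103649296 had 1009, 883 and 663. The remaining 2 of this top group were chr9:35305211-35305593 in the long noncoding RNA gene Gm33838 (660, 969 and 799) and chr12:3109858-3110162 between genes (683, 897 and 733). In every input these 6 were the highest of the 53.

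Next came chr9:3023141-3025136 (125, 130 and 118 in inputs 1, 2 and 3), in a group of 5 hot spots near the start of chromosome 9, and chrX:143482050-143483469 (110, 55 and 97.3). The ribosomal RNA related locus chr17:39842992-39848838, over Rn18s-rs5 and AY036118, had 60, 57.0 and 107, and chr15:75085469-75087046 had 40.6, 38.9 and 79.6. Relative to the leading hot spot of the same library, the chr17 locus stood at 3.73%, 2.82% and 6.76% in the inputs and 5.52% and 7.03% in the mocks. The chr15 site stood at 2.52%, 1.93% and 5.00% against 3.48% and 3.82%, and chr9:3023141-3025136 at 7.75%, 6.44% and 7.44% against 3.96% and 3.37%, so no input lay nearest to the mocks at all 3 sites. Of the 53 hot spots, 31 had their highest fold in input 3, 15 in input 2 and 7 in input 1. The same split over the other regions in all 3 inputs is not given here, so it is not shown to be particular to hot spots. Folds also depend on the depth and control of each library.

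**Figure D5:**
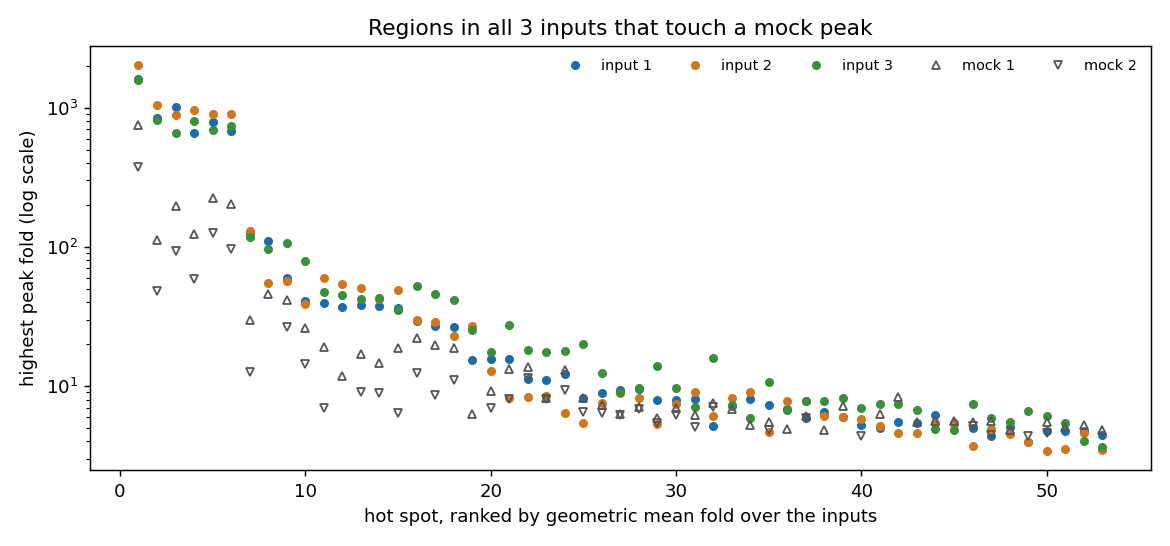
Highest peak fold (vertical axis, log scale) in the 53 hot spots, ranked by the geometric mean over the inputs (horizontal axis). Filled points are the 3 inputs and open triangles the 2 mocks, drawn only where a mock has a peak. The first 6 lie at 660 or more in each input, 20 in all lie above 10 in each, and at the left end the mocks lie below the inputs.

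Some lower hot spots lay in groups. The Sfi1 region carried 5 of them (71.2 kb in all), with folds of 7.95 to 9.49 in input 1, 5.35 to 8.99 in input 2 and 9.11 to 14.1 in input 3. Of the mock peaks, 16 of 89 and 47 of 98 lay in Sfi1. Another 5 lay among the Sp100 family on chromosome 1, with folds of 3.94 to 5.92, 3.94 to 7.76 and 4.81 to 7.80. Mock peaks did not mark all high sites: 52 other regions had a fold over 10 in each input, led by chr9:24541766-24542161, between genes, with 34.7, 29.8 and 27.2. The lists of mocks 1 and 2 hold 84.0% and 64.1% of their numbered peaks. A site without a listed mock peak may therefore still have mock signal.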

How the data were processed

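Broad peak lists of the 3 input and 2 mock libraries were read as deposited, 1 list per library, in mm10. Tools named by the submitters' processing notes are MACS, Picard, SAMtools and Bowtie2. Their versions and settings, and the control against which inputs were called, were not given in the sources used here. Per the file headers and values, the authors' caller gave each peak a score (10 times the −log10 q, to within 1 unit). It also gave a fold, which is a ratio over the caller's local background computed by the authors. Per peak, the authors also deposited a −log10 p and a −log10 q. Fold depends on depth and control, so folds of different libraries are set side by side and not tested. Titles were used for input numbers, and track names inside the input files carry the same numbers. The ChIP tracks carry other numbers, by which the ChIPs of inputs 2 and 3 would change places.

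Lists were compared by overlaps of at least 1 bp, and place was read from midpoints (Python 3.11.15, pandas 2.3.3, numpy 2.4.6, scipy 1.17.1). Gene boundaries came from the RefSeq table of GRCm38.p6, without strand, and promoters from the 300-base RefSeq windows. The overlap code was checked on simulated intervals. No test was made, since there is 1 group. Alternatives were thresholds of −log10 q or fold of at least 5, equal list lengths, joining within 1 kb, autosomes only, mock-touching peaks left out, 50% reciprocal overlap, 5 kb gene ends, and each input left out. The members and lists were chosen with earlier results of these data known.

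Named were the 10 genes with the highest geometric mean end fold in all 3 inputs, the 5 highest for each input alone, the 10 highest hot spots, the 5 widest regions, the top 3 of each list, and always Olig1, Olig2, Sox10, Pdgfra, Cspg4, Mbp, Chd7, Chd8, Actb, Gapdh and Alb. A gene that this rule names is not reported here. The 6 printed promoters, the Hox clusters, Lrrc4c and the leading region without a mock peak were singled out after their values were seen.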

Additional observations from a re-analysis of the deposited data

How the results depend on the processing

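Of 122 recomputed values, 41 moved by less than their exact interval, or for widths, ratios and GC the SD over the inputs, or for counts 1.5 times, and 81 moved by more. No paired analysis was possible because there is 1 group and no result comes from a test. Main values stand in the report. With a −log10 q of at least 5, 30.1% of regions were in all 3 inputs, with a median width of 435 bp and 0.697% at gene ends (1.82% of regions in 1 input), 4 genes and 28 hot spots had all 3, and 56.5%, 38.8% and 64.9% of input 1, 2 and 3 peaks were in both others. The X ratios were then 1.33, 1.43 and 1.42. With a fold of at least 5 the values were 12.1%, 417 bp, 0.694% (3.63%), 6 genes, and 28.0%, 18.1% and 56.6%, and the X ratio of input 3 was 1.27. With equal numbers of peaks they were 9.49%, 1102 bp, 3.49% (6.73%), 1078 genes, and 19.5%, 19.3% and 19%. With peaks joined they were 12.7%, 1491 bp, 6.28% (5.84%), and 26.8%, 18.0% and 28.6%. On autosomes 10.8% of regions were in all 3, 5.75% of regions in 1 input lay at gene ends, and 23.9% and 15.2% of input 1 and 2 peaks were in both others. Reciprocal overlap gave 5.02%, 3.07% and 6.02%. Gene ends of 5 kb gave 11.8% (17.2%) and 7275 genes, and start sites gave 4.38% for regions in 1 input. Leaving out an input leaves 2 lists to share: 17.5% to 31.1% of regions (the highest without input 3), 594 to 646 bp, 2.88% (without input 3) to 8.88% at gene ends, 4.44% to 6.41% for regions in 1 input, and 2882 (without input 3) to 4568 genes (without input 1). Median promoter GC was 64.3% over all windows touched by input 1 and 62.7% over all windows touched by input 3, whatever the other inputs did. At a −log10 q of at least 5 no promoter had all 3 inputs, so its GC has no value. No other cause of these shifts was tested. The X ratio and the gene-end share of recurrent regions thus depend on the threshold, and unknown depth limits all counts.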
